A study of Mus musculus with 8 samples.

Results

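Colon epithelium was compared with hindstomach epithelium of mouse embryos at E16.5, late in gestation, using 2 colon and 2 hindstomach libraries out of 8 poly(A) RNA-seq libraries in the series. The hindstomach is the glandular part of the rodent stomach. The members are the 12230 genes, of 23393 gene symbols listed, that reached at least 1 FPKM in at least 2 of the 4 libraries. FPKM counts sequenced fragments per length of transcript and per size of library, so levels can be set side by side between genes. Between libraries, the main fit compared levels without a correction for composition, that is, for the share that the most abundant genes take. The 10 most abundant genes held 9.29% and 6.27% of total FPKM in the colon libraries and 13.3% and 14.7% in the hindstomach libraries. The series profiled 4 epithelia with 2 libraries each. The forestomach libraries entered only an alternative fit of all 8 libraries. The 2 libraries of the proximal small intestine, called intestine below, show where the colon also departs from the other bowel tissue. They also entered the fit of all 8 libraries and an alternative fit that added them for the spread.

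All of the libraries are labelled as untreated. Per the labels' protocols the gut epithelium at this age came from ShhCre;R26YFP/+ embryos, which carry a Cre recombinase driven from the Shh gene, active in gut epithelium, and a Cre-dependent yellow fluorescent reporter. Colon and hindstomach epithelium was shaken off in the cold, the hindstomach in 10 mM EDTA and the colon in 5 mM, so tissue and EDTA concentration cannot be told apart. Released epithelium was frozen, with no sorting step named before it. The titles give the age as E16.5 and the age label as E16. The labels number 2 replicates per tissue without saying that they came from separate embryos, so each p-value covers only how far these libraries spread, and that spread may be technical. Transcripts of the X-inactivation gene Xist (30.6 and 28.9 FPKM in the colon, 16.3 and 49.6 in the hindstomach) and of the Y-linked gene Ddx3y (1.496 and 6.93 in the colon, 9.09 and 6.28 in the hindstomach) were present in each of the 4 libraries.

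The stomach and the colon arise from opposite ends of the same endodermal tube. In the stomach, Sox2-expressing endoderm gives rise to surface mucous cells, acid-secreting parietal cells and enzyme-secreting chief cells, and the suckling stomach of mammals makes chymosin, which clots milk. In the hindgut, Cdx factors and posterior Hox genes mark the endoderm, which forms absorptive colonocytes, mucus-secreting goblet cells and hormone cells, and the fetal colon passes through a stage with villi and digestive enzymes like those of the small intestine.

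Both tissues carried the markers of their labels. The epithelial adhesion gene Epcam stood at 557 and 511 FPKM in the colon and 427 and 374 in the hindstomach. Among hindgut markers, Hoxb13 and Car1 were present in both colon libraries and near or at 0 in the hindstomach, and among gastric markers Cldn18, Gkn2 and Atp4b were high in both hindstomach libraries. Aqp8, a colonocyte water channel, did not separate the tissues (47.0 and 11.4 FPKM in the colon and 19.99 and 17.3 in the hindstomach). Epcam lies outside the rule for naming genes and serves as a check of the tissue only. The colon libraries were not alike. Pearson's r of log2(FPKM + 1), computed over genes that are no independent replicates, was 0.956 between the colon libraries, 0.978 between the hindstomach libraries and 0.867 to 0.883 between tissues, whereas colon replicate 1 and intestine replicate 1 reached 0.970. Small intestinal absorptive transcripts were higher in colon replicate 1 than in colon replicate 2, as with Apoa4 at 5177 and 1461 FPKM. Transcripts of connective tissue, muscle and neurons were higher in colon replicate 2. Hindstomach replicate 1 held more pancreatic and squamous transcripts than hindstomach replicate 2. Total FPKM ran from 328490 to 360655. Read numbers are unknown, but steps in the low values put the depth at 0.500 and 0.899 for colon replicates 1 and 2 and at 0.450 for hindstomach replicate 2, relative to hindstomach replicate 1 and uncertain by a factor of 2.

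Of the 12230 genes, 491 (4.01%) were called higher in the colon and 344 (2.81%) lower, 835 (6.83%) in either direction. A call required a Benjamini-Hochberg adjusted p under 0.05 over all genes tested in limma and at least a 2-fold difference on the log2(FPKM + 1) scale, which understates differences of low genes. An unadjusted p under 0.05 was reached by 2812 genes. Over all genes the median log2 fold change was 0.01. At 4-fold or more, 158 genes were called higher and 142 lower, and at 8-fold or more 46 and 64. Both colon libraries lay above both hindstomach libraries for 30.2% of genes and below them for 23.9%. Without hindstomach replicate 1 the counts were 92 higher and 110 lower, and without hindstomach replicate 2 they were 87 and 79. Leaving out colon replicate 1 gave 1199 and 402, and leaving out colon replicate 2 gave 920 and 528. With 3 libraries the lone library is assumed to vary like the pair of the other tissue, and the hindstomach pair is the tighter one. Calls made in all 4 of these fits numbered 72 higher and 73 lower. In bulk RNA, fewer cells of a type and less RNA per cell cannot be told apart. A gene expressed in only 1 tissue passed the filter on low values through that tissue, so the counts of called members below describe the lists and support nothing further. Where a pair of values is set against another pair below, the 2 colon libraries come first and the 2 hindstomach libraries second, replicate 1 before replicate 2, in FPKM.

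**Figure D1:**
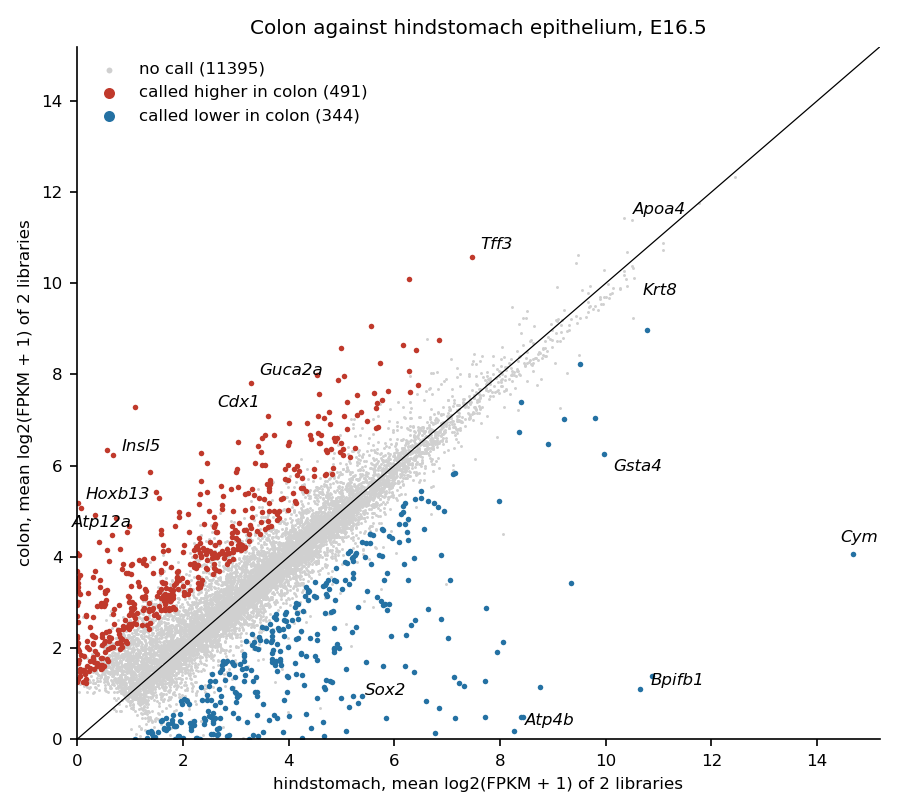
Each point is 1 of 12230 genes, with the mean log2(FPKM + 1) of the 2 hindstomach libraries on the horizontal axis and of the 2 colon libraries on the vertical axis; red marks the 491 genes called higher in the colon and blue the 344 called lower, and the line marks equal levels. Cym lies farthest to the right, and Insl5, Hoxb13 and Atp12a lie at the left edge.

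The genes that stood farthest above the hindstomach include secreted proteins and transporters of hindgut cell types. The 15 with the largest differences among called genes that average 10 FPKM or more in the colon had log2 fold changes from 3.82 to 5.76, and each kept its call without each library in turn. Sval1, a gene of the seminal vesicle antigen family, stood at 71.0 and 89.1 FPKM in the colon and 0.851 and 0.189 in the hindstomach (log2 fold change 5.76, SE 0.27, adjusted p = 0.000979). Insl5, a peptide hormone of colonic endocrine cells, stood at 61.0 and 90.4 FPKM in the colon and 0.217 and 1.12 in the hindstomach (log2 fold change 5.55, SE 0.34, adjusted p = 0.00198). The 2 colon libraries lay far above the hindstomach pair for both genes. Atp12a, the non-gastric proton and potassium pump of the distal colon, stood at 39.3 and 27.2 FPKM in the colon and 0.0331 and 0.0588 in the hindstomach (log2 fold change 5.01, SE 0.24, adjusted p = 0.00101). Slc6a14, a transporter of neutral and cationic amino acids, stood at 29.6 and 29.0 FPKM in the colon and 0.348 and 0.186 in the hindstomach (log2 fold change 4.58, SE 0.19, adjusted p = 0.000839). Best2, a bicarbonate channel of colonic goblet cells, stood at 12.6 and 19.02 FPKM in the colon and 0.0459 and 0 in the hindstomach (log2 fold change 4.01, SE 0.26, adjusted p = 0.00210). None of these 3 transporters exceeded 1 FPKM in either hindstomach library. St6galnac6, which adds sialic acid to glycans, stood at 22.7 and 34.4 FPKM in the colon and 0.672 and 0.664 in the hindstomach. Ceacam1, an adhesion molecule of the apical surface, stood at 67.9 and 86.8 FPKM in the colon and 4.02 and 4.10 in the hindstomach. Thbs4, a matrix glycoprotein, stood at 14.7 and 24.8 FPKM in the colon and 0.241 and 0.442 in the hindstomach, and Kcne1l, a subunit of potassium channels, at 15.2 and 30.2 against 0.593 and 0.553. The most abundant of the 15 was Spink1, a trypsin inhibitor, at 1181 and 1024 FPKM in the colon and 100.2 and 59.2 in the hindstomach (log2 fold change 3.82, SE 0.29, adjusted p = 0.00299). The groups did not overlap for any of the 15, which the rule for naming them required.

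Of these 15 genes, 12 were also called higher in the colon than in the intestine, where 2.53% of genes were. The exceptions were the guanylin gene Guca2a, the peptidase gene Naaladl1 and Spink1. Guca2a stood at 98.9 and 82.9 FPKM in the intestine libraries, Naaladl1 at 41.5 and 46.5 and Spink1 at 567 and 677, levels above both hindstomach libraries in each case. Genes such as Insl5 (0.262 and 1.80 FPKM in the intestine), Atp12a (0.0293 and 0.00423) and Best2 (0.0395 and 0.00799) were low in both of the other tissues.

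The promoters of Insl5 and Guca2a are shown because both genes were among the 15 and carry repeats of AGATAA, a word found in the sites of GATA factors. The stretches are from RefSeq on GRCm38.p6, written along the gene strand and ending at the base before the RefSeq start. They lie at chr4:103026729-103026828 (minus strand) for Insl5 and chr4:119637582-119637731 (plus strand) for Guca2a. In GENCODE M21 the Insl5 gene starts at 103026842, so its whole stretch lies inside that gene. Guca2a starts there at 119637704, so the end of its stretch does too. Capitals mark AGATAA or, on the other strand, TTATCT.
Insl5: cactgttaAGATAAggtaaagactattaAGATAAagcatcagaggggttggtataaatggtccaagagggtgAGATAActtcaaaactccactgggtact
Guca2a: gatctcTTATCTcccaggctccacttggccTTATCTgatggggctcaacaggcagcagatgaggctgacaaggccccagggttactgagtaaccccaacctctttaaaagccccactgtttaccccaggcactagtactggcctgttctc
Insl5 held 3 matches, starting at -92, -72 and -28 from the start, and Guca2a held 2, at -144 and -120. AGATAA on either strand was sought in the 250 bases before the start, and a gene counted if any of its windows held it. It was found for 10.2% of the 362 genes called higher that had a window, 9.31% of 247 called lower and 7.202% of 9483 tested. Counted per window, which is another unit, it was found in 9.99% of all 32851 windows. TTTATNG, a word found in the sites of Cdx factors, was counted in the same way on either strand. It was found for 11.3% of genes called higher, 10.1% of those called lower and 7.56% of those tested, and in 9.81% of all windows. Both words were thus about as frequent before genes called lower as before genes called higher, in a description without a test.

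The genes that stood farthest below were mostly products of gastric surface, chief and parietal cells, whose lists hold 13 of the 15, all but Vsig2 and Gsdmc2. The 15 with the largest differences had log2 fold changes from -5.94 to -10.63. Cym, which encodes chymosin and was the most abundant transcript of the hindstomach, stood at 86.0 and 2.17 FPKM in the colon and 23524 and 29459 in the hindstomach (log2 fold change -10.63, SE 1.46, adjusted p = 0.0167). Its call ended without either hindstomach library, and colon replicate 1 held far more of it than colon replicate 2, while both stayed below the hindstomach. Pga5, a pepsinogen gene, stood at 3.68 and 0.459 FPKM in the colon and 795 and 4409 in the hindstomach (log2 fold change -9.49, SE 0.91, adjusted p = 0.00602). Pgc, which encodes progastricsin, stood at 0.842 and 1.68 FPKM in the colon and 349 and 533 in the hindstomach (log2 fold change -7.60, SE 0.29, adjusted p = 0.000839). For all 3 protease genes both hindstomach libraries lay far above both colon libraries. Atp4b and Atp4a, the subunits of the gastric proton pump, stood at 0.210 and 0.0439 FPKM in the colon and 218 and 435 in the hindstomach and at 0.399 and 0.361 against 76.9 and 258, respectively, with more in hindstomach replicate 2. Cldn18, a tight junction protein of stomach epithelium, stood at 0.716 and 0.146 FPKM in the colon and 337 and 339 in the hindstomach (log2 fold change -7.92, SE 0.23, adjusted p = 0.000480). Anxa10, a gastric annexin, stood at 0.723 and 0.125 FPKM in the colon and 356 and 334 in the hindstomach (log2 fold change -7.96, SE 0.24, adjusted p = 0.000480). The hindstomach libraries were closer to each other for these last 2 genes than for the other 13. Bpifb1 (2.62 and 0.276 FPKM in the colon and 1219 and 2099.8 in the hindstomach), Dpcr1 (0.494 and 0.297 against 177 and 248), Vsig2 (1.83 and 1.06 against 168 and 257), Gif, the intrinsic factor gene that binds vitamin B12 (0.204 and 0.0126 against 86.6 and 134), and Ctse, an aspartic protease gene (3.64 and 3.08 against 224 and 315), followed the same order. The remaining 3, Gkn2, Gsdmc2 and Tff2, are described with their families. Of these 15 calls, 13 held without each library in turn, and those of Cym and Tff2 ended without hindstomach replicate 1 and without hindstomach replicate 2. None of the 15 was called between colon and intestine.

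**Figure D2:**
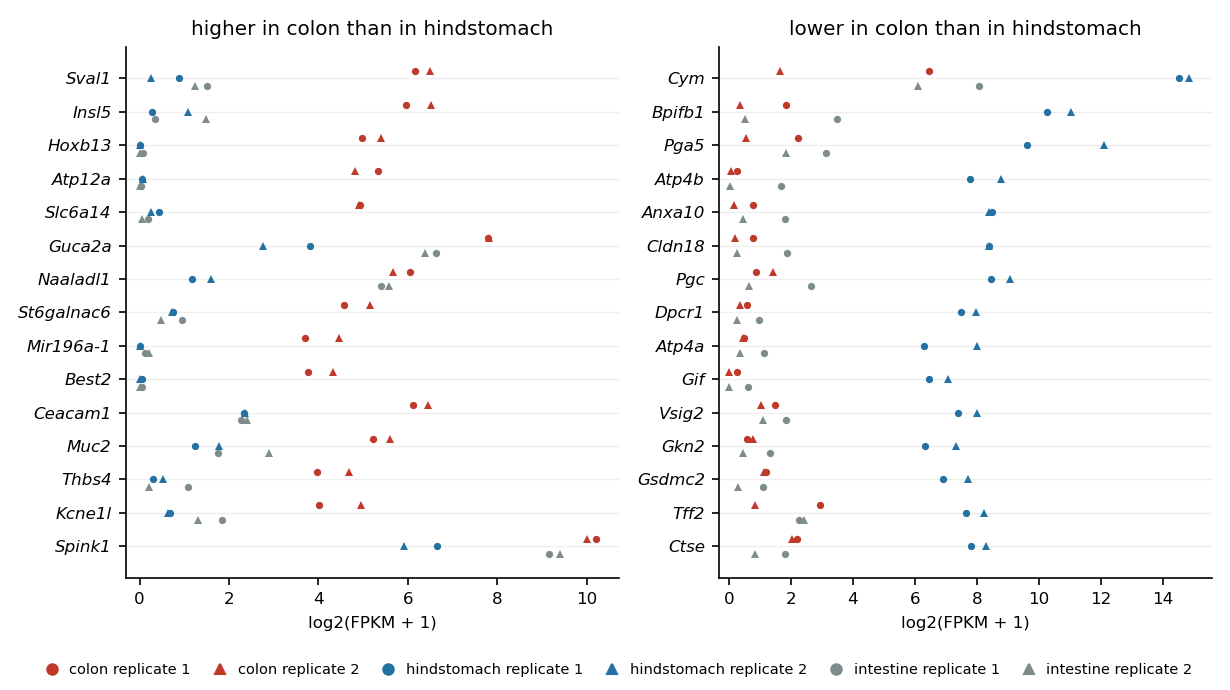
Level in log2(FPKM + 1) in each library of the 15 genes with the largest difference in each direction, ordered by that difference; circles are replicate 1 and triangles replicate 2. On the left the colon libraries (red) lie to the right of both hindstomach libraries (blue) for all 15 genes, and the intestine libraries (grey) lie near the hindstomach except for Guca2a, Naaladl1 and Spink1; on the right the hindstomach libraries lie to the right of every other library.

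Promoters of 3 of the genes called lower are shown because they carry TATAAA, the TATA box word, at the usual distance from the start. They are from RefSeq on GRCm38.p6, with TATAAA in capitals, each the 100 bases before the start along the gene strand, at chr17:47726742-47726841 (plus strand) for Pgc, chr6:87373265-87373364 (plus strand) for Gkn2 and chr3:107221733-107221832 (minus strand) for Cym.
Pgc: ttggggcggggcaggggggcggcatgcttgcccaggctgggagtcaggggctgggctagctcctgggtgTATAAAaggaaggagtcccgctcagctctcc
Gkn2: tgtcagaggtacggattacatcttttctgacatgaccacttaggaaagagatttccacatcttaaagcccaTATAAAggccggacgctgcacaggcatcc
Cym: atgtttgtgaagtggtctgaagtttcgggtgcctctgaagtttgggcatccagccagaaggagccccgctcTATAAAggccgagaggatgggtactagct
The word starts at -31 in Pgc and at -29 in Gkn2 and Cym, counted from the RefSeq start. In GENCODE M21 Gkn2 starts at 87373357, inside the last bases of its stretch. On the gene strand, starting 40 to 20 bases before the start, TATAAA was counted for a gene if any of its windows held it. It was found for 21 of 247 genes called lower (8.50%), 15 of 362 called higher (4.14%) and 173 of 9483 tested (1.82%). Counted per window, it was found in 655 of all 32851 (1.99%). These shares are a description of the called genes, and no test was made of them.

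Posterior Hox genes separated the 2 tissues. Hox genes encode homeodomain factors in 4 clusters, and those of higher paralog group are expressed farther back in the body. Of 39 Hox genes in the table, 22 were tested and 15 called higher. All 9 tested genes of groups 9 to 13, of 16 in the table, were called higher, and they passed the filter through the colon, since no gene of these groups exceeded 0.0998 FPKM in a hindstomach library. Summed over groups 9 to 13, Hox transcripts stood at 65.0 and 104 FPKM in the colon and at 0.112 and 0.145 in the hindstomach. Hoxb13 (chromosome 11, 96194316 to 96197447, GENCODE M21 on GRCm38) stood at 30.2 and 41.1 FPKM in the colon and 0.00790 and 0 in the hindstomach (log2 fold change 5.17, SE 0.22, adjusted p = 0.000870). Hoxd13 stood at 9.95 and 14.2 FPKM in the colon and was listed at 0 in both hindstomach libraries (adjusted p = 0.00222). Hoxa13 stood at 3.20 and 4.12 FPKM in the colon and 0.00353 and 0 in the hindstomach. Hoxb9 stood at 6.61 and 10.7 FPKM in the colon and 0.0102 and 0 in the hindstomach, and Hoxa10 at 5.12 and 9.69 against 0 and 0.00593. The intestine libraries held 0.346 and 0.0344 FPKM of groups 9 to 13, and 8 of the 9 genes were also called higher in the colon than there, the exception being Hoxd10.

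The more anterior groups differed less. Groups 6 to 8 had 3 genes tested of 8, Hoxa7, Hoxb6 and Hoxb7, each called higher, with summed levels over the 8 genes of 9.71 and 22.8 FPKM in the colon and 1.19 and 0.705 in the hindstomach. In groups 1 to 5, of 15 genes 10 were tested and 3 called higher, Hoxa5, Hoxb5 and Hoxd4, and the hindstomach held 9.27 and 8.44 FPKM against 24.7 and 61.0 in the colon. Hoxc4 was the only gene tested that leaned the other way, at 0.679 and 1.14 FPKM in the colon and 2.25 and 1.77 in the hindstomach (log2 fold change -0.66, SE 0.24, adjusted p = 0.186), and it was not called. Colon replicate 2 lay above colon replicate 1 for 37 of the 39 genes, and likewise for all 20 mesenchyme and all 12 smooth muscle genes tested, whose cells also express Hox genes, and the part of those cells in the Hox levels was not tested. Groups 9 to 13 kept 9 calls without either colon library and 3 without either hindstomach library, groups 6 to 8 kept 3 and 0, and groups 1 to 5 counted 9, 3, 0 and 0 without colon replicate 1, colon replicate 2, hindstomach replicate 1 and hindstomach replicate 2.

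**Figure D3:**
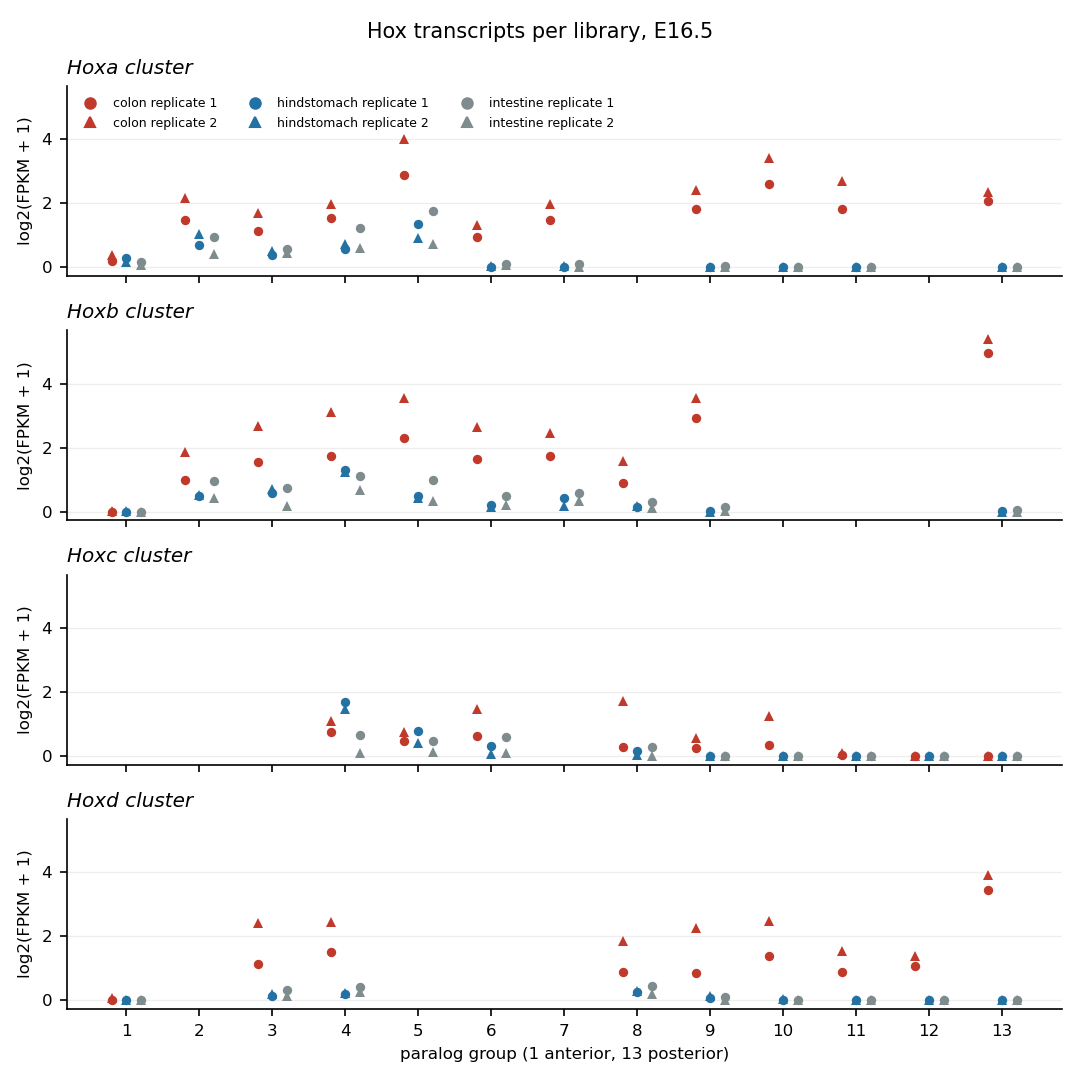
Hox transcripts in log2(FPKM + 1) per library (vertical axes) against paralog group (horizontal axis), with 1 panel per cluster. The colon libraries (red) are above 0 across the Hoxa, Hoxb and Hoxd clusters apart from Hoxb1 and Hoxd1 and highest at Hoxb13, the hindstomach (blue) and intestine (grey) libraries fall to about 0 from group 9 on, and Hoxc genes are low in every library.

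A microRNA gene within the Hoxb cluster followed its neighbours. Mir196a-1 was among the 15 genes with the largest differences, at 12.0 and 21.1 FPKM in the colon and listed at 0 in both hindstomach libraries (adjusted p = 0.00298). Mir196b, in the Hoxa cluster and too low to be tested, stood at 0.616 and 0.571 FPKM in the colon and was listed at 0 in the hindstomach, and Mir196a-2 was listed at 0 in all 4. The mature sequences are shown because the 2 forms share a seed (bases 2 to 8, in capitals) and so belong to 1 seed family, as given in RefSeq on GRCm38.p6, at chr11:96265187-96265208 (plus strand) for the Mir196a-1 product and chr6:52230129-52230150 (minus strand) for the Mir196b product.
miR-196a-5p: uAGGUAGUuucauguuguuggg
miR-196b-5p: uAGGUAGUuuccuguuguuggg
They differ by A12C, counted from 1 at the 5′ end, outside the seed. The values are poly(A) fragments over the short hairpin gene and not mature microRNA, and since the strand setting of the counting is not known here, reads of longer transcripts across the hairpin cannot be told apart from it.

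Intestinal transcription factors were higher in the colon in part. Of 24 tested, 8 were called higher and 0 lower, with a median log2 fold change of 0.95. Without colon replicate 1, colon replicate 2, hindstomach replicate 1 and hindstomach replicate 2, the counts called higher were 8, 13, 3 and 3 and those called lower 4, 2, 0 and 0. Cdx1, a caudal-type homeodomain factor, stood at 138 and 134 FPKM in the colon and 13.8 and 8.99 in the hindstomach (log2 fold change 3.49, SE 0.22, adjusted p = 0.00210). Cdx2, which directs intestinal identity, stood at 112 and 91.1 FPKM in the colon and 24.4 and 16.55 in the hindstomach (log2 fold change 2.27, SE 0.23, adjusted p = 0.00765), so the hindstomach libraries were not without it. Isx, a homeodomain factor that represses carotene uptake genes, stood at 67.9 and 37.6 FPKM in the colon and 14.8 and 8.93 in the hindstomach (log2 fold change 2.04, SE 0.36, adjusted p = 0.0316). Nr1h4, the bile acid receptor, stood at 74.8 and 47.9 FPKM in the colon and 15.4 and 17.0 in the hindstomach (log2 fold change 1.83, SE 0.24, adjusted p = 0.0157). The groups did not overlap for these 4 genes, as was so in this direction for 30.2% of all genes. Gata4, which is known for the proximal small intestine and stomach, leaned the other way at 29.1 and 8.64 FPKM in the colon and 62.9 and 66.6 in the hindstomach and was not called (log2 fold change -1.95, SE 0.52, adjusted p = 0.0928).

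Gastric transcription factors were lower in the colon, 12 of 19 tested, with 0 higher and a median log2 fold change of -1.54. In the same order of libraries left out, 12, 12, 6 and 4 were called lower. Sox2, the factor of foregut endoderm (chromosome 3, 34650405 to 34652461), stood at 0.390 and 1.14 FPKM in the colon and 41.2 and 36.8 in the hindstomach (log2 fold change -4.53, SE 0.26, adjusted p = 0.00179). Its relative Sox21 stood at 0.565 and 0.715 FPKM in the colon and 34.8 and 33.5 in the hindstomach (log2 fold change -4.42, SE 0.18, adjusted p = 0.000839). Foxq1, required for mucin in gastric surface cells, stood at 6.11 and 4.39 FPKM in the colon and 106 and 129 in the hindstomach (log2 fold change -4.25, SE 0.21, adjusted p = 0.00105). For each of these 3 the hindstomach libraries were close together and the colon libraries far below. Nkx6-3, an antral homeodomain factor, stood at 3.12 and 0.104 FPKM in the colon and 24.6 and 24.7 in the hindstomach (log2 fold change -3.59, SE 0.60, adjusted p = 0.0289), with colon replicate 1 well above colon replicate 2. Esrrg, an orphan nuclear receptor of parietal cells, stood at 1.80 and 0.763 FPKM in the colon and 26.1 and 22.9 in the hindstomach (log2 fold change -3.52, SE 0.27, adjusted p = 0.00332). Nkx6-2 stood at 0.0915 and 0.0814 FPKM in the colon and 4.65 and 6.01 in the hindstomach. None of these 6 factors was called between colon and intestine, whereas 5 of the 19 were called higher in the colon than there, against 2.53% of all genes.

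Surface and mucous neck genes were the gastric list with the most members called. Of 19 tested, 17 were called lower in the colon and 1 higher, with a median log2 fold change of -4.81, and 17, 16, 13 and 11 were lower without colon replicate 1, colon replicate 2, hindstomach replicate 1 and hindstomach replicate 2. Their summed level was 3091 and 4570.5 FPKM in the hindstomach and 55.6 and 47.0 in the colon. Gkn2, a gastrokine secreted by surface mucous cells, stood at 0.487 and 0.714 FPKM in the colon and 79.7 and 161 in the hindstomach (log2 fold change -6.16, SE 0.35, adjusted p = 0.00172). Tff2, the trefoil peptide of mucous neck cells, stood at 6.75 and 0.797 FPKM in the colon and 202 and 298 in the hindstomach (log2 fold change -6.04, SE 0.67, adjusted p = 0.00951). Hindstomach replicate 2 was the higher of its pair for both. Capn9, a digestive tract calpain, went against the list at 10.4 and 13.9 FPKM in the colon and 1.86 and 2.18 in the hindstomach (log2 fold change 2.12, SE 0.22, adjusted p = 0.00787), and it was also called higher than in the intestine. Chief cell genes were lower for 4 of 5 tested, of 7 in the table (4, 4, 3 and 3 in the same order), and their summed level was 24774 and 34543 FPKM in the hindstomach, most of it Cym. The fifth, the lipase-related gene Pnliprp2, stood at 11.0 and 2.67 FPKM in the colon and 18.4 and 7.15 in the hindstomach, and the groups overlapped.

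Parietal cell genes were lower for 7 of 12 tested, with 1 higher and a median log2 fold change of -1.80, and for 8, 7, 5 and 5 with the libraries left out in the same order. Besides the pump subunits, potassium channel genes that recycle potassium for the pump were lower. Kcnj15 stood at 0.112 and 0.133 FPKM in the colon and 30.2 and 36.1 in the hindstomach (log2 fold change -4.92, SE 0.20, adjusted p = 0.000839), and Kcne2 at 0.00987 and 0.0110 FPKM in the colon and 17.2 and 18.8 in the hindstomach (log2 fold change -4.23, SE 0.20, adjusted p = 0.000979). Kcnq1, the channel partner of Kcne2, stood at 5.21 and 2.51 FPKM in the colon and 18.1 and 22.5 in the hindstomach (log2 fold change -2.18, SE 0.31, adjusted p = 0.0189), so it was present in the colon as well. Slc26a9, a chloride transporter of gastric cells, stood at 0.537 and 0.325 FPKM in the colon and 10.8 and 21.01 in the hindstomach (log2 fold change -3.50, SE 0.34, adjusted p = 0.00602). Ckb, a creatine kinase, went against the list at 191 and 139.9 FPKM in the colon and 55.4 and 45.2 in the hindstomach (log2 fold change 1.69, SE 0.22, adjusted p = 0.0145). Gasdermin genes, whose products can form membrane pores, were lower for 4 of 5 tested, of 8 in the table (3, 3, 4 and 2 in the same order). Gsdmc2 stood at 1.30 and 1.20 FPKM in the colon and 119 and 211 in the hindstomach (log2 fold change -6.15, SE 0.29, adjusted p = 0.000980), Gsdmc3 at 0.959 and 0.913 FPKM in the colon and 27.0 and 48.7 in the hindstomach and Gsdmc4 at 2.49 and 1.90 against 15.4 and 17.7. The Gsdmc genes are near-identical neighbours, so fragments may have been divided among them and the split between them is uncertain. Gsdmd, the widely expressed member, stood at 85.3 and 52.8 FPKM in the colon and 45.9 and 66.7 in the hindstomach, and the groups overlapped.

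**Figure D4:**
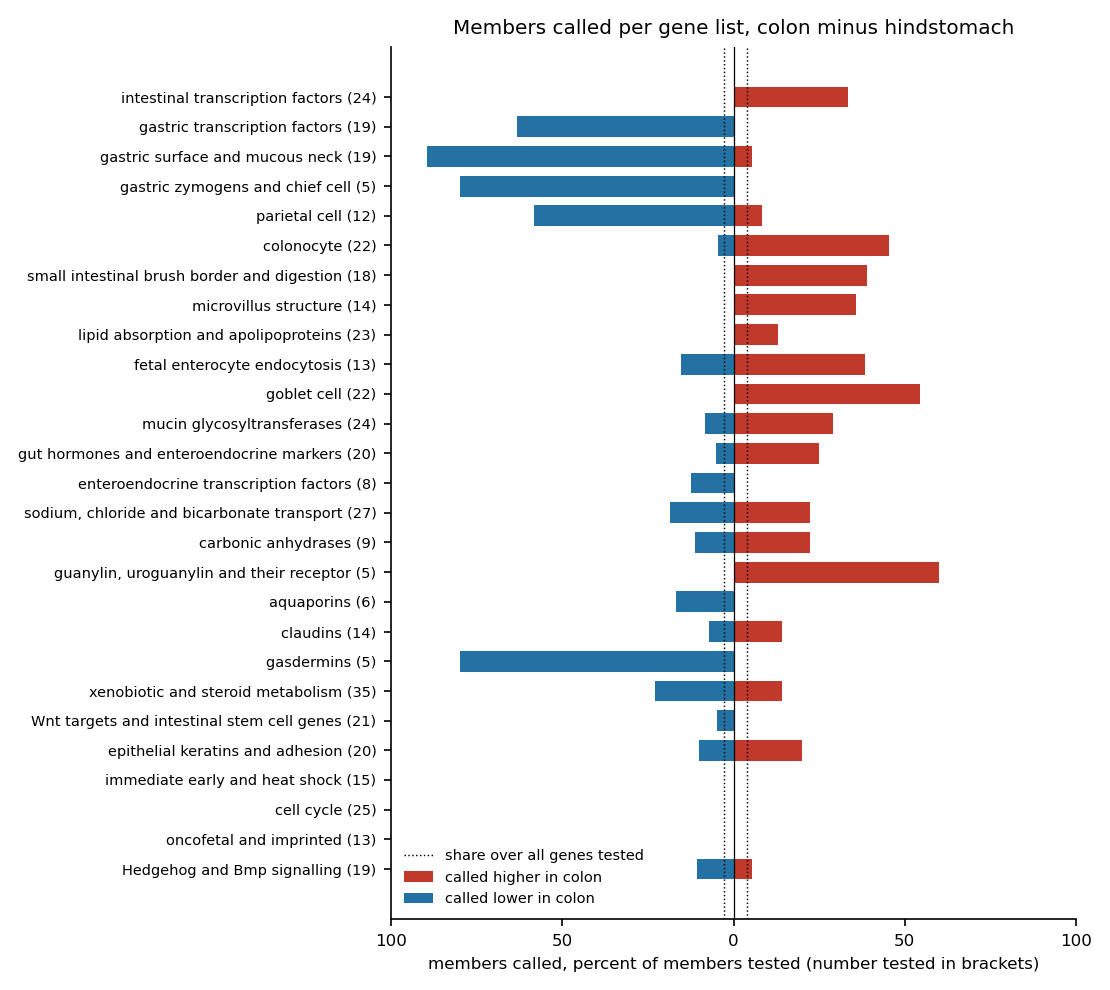
Percent of the tested members of each list that were called higher in the colon (red, to the right) or lower (blue, to the left), with the number tested in brackets; dotted lines mark the shares over all genes tested, 4.01% higher and 2.81% lower. The gastric and gasdermin lists extend to the left, the goblet, colonocyte and guanylin lists to the right, and the cell cycle, immediate early and oncofetal lists have no member called.

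Goblet cell genes were higher in the colon for 12 of 22 tested, of 23 in the table, with 0 lower and a median log2 fold change of 1.67. Leaving out colon replicate 1, colon replicate 2, hindstomach replicate 1 and hindstomach replicate 2 gave 12, 13, 7 and 5. Muc2, the gel-forming mucin of the bowel, stood at 36.6 and 47.6 FPKM in the colon and 1.34 and 2.403 in the hindstomach (log2 fold change 3.92, SE 0.26, adjusted p = 0.00217). Atoh1, the factor that commits cells to the secretory lineage, stood at 17.4 and 28.3 FPKM in the colon and 1.40 and 0.530 in the hindstomach (log2 fold change 3.60, SE 0.33, adjusted p = 0.00548). The goblet cell products Clca1 (339 and 432 FPKM in the colon and 43.9 and 21.3 in the hindstomach), Spink4 (446 and 643 against 60.8 and 34.6) and Retnlb (316 and 203 against 34.7 and 14.2) were called higher as well, with log2 fold changes of 3.60, 3.51 and 3.45. The hindstomach libraries held all 3 products at lower levels, with more in replicate 1. Of the 22 tested, whether or not called against the hindstomach, 11 were called higher in the colon than in the intestine. Over all genes 2.53% were. Clca1, Spink4 and Retnlb were not called between colon and intestine.

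Enzymes that build mucin sugars were higher for 7 of 24 tested, of 27 in the table, and lower for 2, with a median log2 fold change of 0.57. With each library left out in the same order, 7, 7, 3 and 4 were higher and 2, 3, 0 and 0 lower. B3galt5, a galactosyltransferase, stood at 12.0 and 16.1 FPKM in the colon and 0.358 and 0.714 in the hindstomach (log2 fold change 3.29, SE 0.25, adjusted p = 0.00298). Chst4, a sulfotransferase, stood at 22.5 and 21.03 FPKM in the colon and 2.35 and 1.69 in the hindstomach (log2 fold change 2.92, SE 0.20, adjusted p = 0.00257). B3gnt7, which extends glycan chains, stood at 32.1 and 36.0 FPKM in the colon and 3.12 and 9.72 in the hindstomach (log2 fold change 2.4, SE 0.45, adjusted p = 0.0382). All 3 were also called higher than in the intestine. A4gnt, which caps gastric gland mucin, went the other way at 4.46 and 4.40 FPKM in the colon and 14.1 and 11.9 in the hindstomach (log2 fold change -1.36, SE 0.19, adjusted p = 0.0163), as did Galnt4, an enzyme that starts mucin sugar chains, at 27.6 and 26.8 FPKM in the colon and 80.7 and 70.5 in the hindstomach (log2 fold change -1.44, SE 0.16, adjusted p = 0.00888). Of the 24, 12 were called higher in the colon than in the intestine, A4gnt among them, against 2.53% of all genes.

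Digestive enzymes of the small intestinal brush border were found in both tissues. Of 18 tested, of 22 in the table, 7 were called higher in the colon and 0 lower, with a median log2 fold change of 1.65. The summed level was 2022 and 873 FPKM in the colon and 432 and 526 in the hindstomach, and all 18 were higher in colon replicate 1 than in colon replicate 2. Without colon replicate 2 all 18 were called higher, without colon replicate 1 10 were, and without either hindstomach library 4 were. Naaladl1 stood at 65.3 and 50.1 FPKM in the colon and 1.26 and 2.01 in the hindstomach (log2 fold change 4.48, SE 0.23, adjusted p = 0.00125). Enpep, an aminopeptidase, stood at 96.1 and 84.4 FPKM in the colon and 7.45 and 7.05 in the hindstomach (log2 fold change 3.46, SE 0.16, adjusted p = 0.000979). Mep1a, a meprin metalloprotease, stood at 109 and 93.1 FPKM in the colon and 12.4 and 12.0 in the hindstomach (log2 fold change 2.95, SE 0.16, adjusted p = 0.00155), and Mgam, which releases glucose from starch products, at 50.4 and 41.4 FPKM in the colon and 6.49 and 4.73 in the hindstomach (log2 fold change 2.83, SE 0.21, adjusted p = 0.00298). For these 4 the colon libraries were close to each other. Ace, the angiotensin-converting enzyme, stood at 95.8 and 41.8 FPKM in the colon and 6.73 and 15.4 in the hindstomach (log2 fold change 2.52, SE 0.50, adjusted p = 0.0460), and its call ended without colon replicate 1 and without either hindstomach library.

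Several genes of lipid absorption were abundant in both tissues. Of 23 tested, 3 were higher, against 4.01% of all genes, and 0 lower, with a median log2 fold change of 1.07, and without colon replicate 2 the count was 20, against 3 without colon replicate 1 and 1 without either hindstomach library. Apoa4, an apolipoprotein of chylomicrons, stood at 5177 and 1461 FPKM in the colon and 1105 and 1544 in the hindstomach (log2 fold change 1.07, SE 0.62, adjusted p = 0.388). Fabp1, a fatty acid binding protein, stood at 4773 and 1502 FPKM in the colon and 1486 and 1410.1 in the hindstomach (log2 fold change 0.89, SE 0.57, adjusted p = 0.434), and Fabp2 at 2969.9 and 828 FPKM in the colon and 651 and 775 in the hindstomach. In each of these abundant genes colon replicate 2 lay within the range of, or next to, the hindstomach libraries, and colon replicate 1 lay above it. The 3 called genes were the sterol transporter Abcg5 (5.99 and 3.93 FPKM in the colon and 0.916 and 1.31 in the hindstomach), the lipid droplet protein Plin2 (119 and 77.4 against 32.1 and 26.8) and the ileal bile acid binding protein Fabp6 (11.2 and 9.48 against 0.455 and 0.243, log2 fold change 3.07, SE 0.22, adjusted p = 0.00272). Fabp6 was also called higher than in the proximal small intestine (0.414 and 0.837 FPKM).

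Microvillus genes were higher for 5 of 14 tested, with 0 lower (4, 9, 1 and 0 without colon replicate 1, colon replicate 2, hindstomach replicate 1 and hindstomach replicate 2). Myo7b, a microvillar myosin, stood at 54.8 and 34.7 FPKM in the colon and 8.05 and 9.90 in the hindstomach (log2 fold change 2.17, SE 0.26, adjusted p = 0.0117), and Cdh17, the liver-intestine cadherin, at 194 and 142 FPKM in the colon and 41.7 and 26.4 in the hindstomach (log2 fold change 2.29, SE 0.28, adjusted p = 0.0122). The endocytic machinery that the fetal enterocyte uses to take up milk protein had 5 of 13 higher and 2 lower (4, 8, 0 and 0 higher in the same order). Amn, which anchors the receptor cubilin, stood at 118 and 69.9 FPKM in the colon and 14.8 and 15.4 in the hindstomach (log2 fold change 2.52, SE 0.27, adjusted p = 0.00853). Cubn, cubilin itself, stood at 20.8 and 13.6 FPKM in the colon and 2.41 and 5.26 in the hindstomach (log2 fold change 1.95, SE 0.36, adjusted p = 0.0370), and the adaptor Dab2 at 11.7 and 13.7 FPKM in the colon and 2.22 and 2.60 in the hindstomach (log2 fold change 2.01, SE 0.20, adjusted p = 0.00653). The lysosomal protease gene Ctsh went the other way, at 5.66 and 4.86 FPKM in the colon and 16.6 and 17.8 in the hindstomach (log2 fold change -1.54, SE 0.18, adjusted p = 0.0104), as did the membrane protein gene Pllp (28.4 and 31.3 FPKM in the colon and 69.4 and 68.4 in the hindstomach).

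Colonocyte genes were higher for 10 of 22 tested, of 26 in the table, and lower for 1, with a median log2 fold change of 0.99. Left out in the same order as before, the libraries gave 9, 13, 4 and 4 higher. Saa1, an acute phase protein also made by colonic epithelium, stood at 12.2 and 10.0 FPKM in the colon and 0.0718 and 0 in the hindstomach (log2 fold change 3.54, SE 0.22, adjusted p = 0.00198). Car1, a carbonic anhydrase of the large bowel, stood at 3.30 and 2.53 FPKM in the colon and 0.0140 and 0 in the hindstomach (log2 fold change 1.95, SE 0.23, adjusted p = 0.0110). Both were called higher than in the intestine, where Saa1 stood at 0.0272 and 0 FPKM and Car1 was listed at 0 in both libraries. The sulfur transferase gene Tst was the member called lower, at 33.1 and 37.9 FPKM in the colon and 68.4 and 78.0 in the hindstomach (log2 fold change -1.02, SE 0.17, adjusted p = 0.0274), a call that held only without colon replicate 2. The guanylin system, which raises cyclic GMP in enterocytes to drive fluid secretion, had 3 of 5 genes higher (4, 4, 2 and 2 in that order). Guca2a stood at 222 and 223 FPKM in the colon and 13.1 and 5.74 in the hindstomach (log2 fold change 4.52, SE 0.35, adjusted p = 0.00332). Guca2b, uroguanylin, stood at 98.7 and 42.9 FPKM in the colon and 7.66 and 11.2 in the hindstomach (log2 fold change 2.68, SE 0.41, adjusted p = 0.0239). Gucy2c, the receptor of both peptides, stood at 137 and 108 FPKM in the colon and 22.6 and 16.6 in the hindstomach (log2 fold change 2.58, SE 0.22, adjusted p = 0.00428). Both ligands and their receptor were thus called higher. The downstream kinase Prkg2 (42.3 and 23.4 FPKM in the colon and 15.1 and 12.5 in the hindstomach) and phosphodiesterase Pde5a (7.17 and 10.7 against 3.95 and 4.24) were not called.

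Salt and bicarbonate transport divided between the tissues, with 6 of 27 tested genes higher in the colon, 5 lower and a median log2 fold change of 0.21. In the same order of libraries left out, 6, 10, 2 and 2 were higher and 5, 4, 3 and 2 lower. On the colon side stood Atp12a, Best2 and Hsd11b2, which shields the mineralocorticoid receptor from glucocorticoids, at 10.8 and 12.8 FPKM in the colon and 1.86 and 3.76 in the hindstomach (log2 fold change 1.79, SE 0.29, adjusted p = 0.0278). On the hindstomach side stood Slc9a4, the sodium and proton exchanger of parietal cells, at 0.0803 and 0.0276 FPKM in the colon and 20.99 and 28.2 in the hindstomach (log2 fold change -4.59, SE 0.23, adjusted p = 0.00105), together with Slc26a9. Fxyd3, a regulator of the sodium pump, stood at 8.14 and 12.6 FPKM in the colon and 51.3 and 59.4 in the hindstomach (log2 fold change -2.33, SE 0.24, adjusted p = 0.00736), and the chloride channel Ano1 at 7.72 and 11.6 FPKM in the colon and 22.4 and 27.8 in the hindstomach (log2 fold change -1.31, SE 0.24, adjusted p = 0.0370). Both of these were lower in the colon than in the hindstomach but called higher than in the intestine. Carbonic anhydrases had 2 of 9 higher, Car1 and Car12 (6.23 and 5.42 FPKM in the colon and 1.43 and 0.965 in the hindstomach), and 1 lower, the mitochondrial Car5b (0.115 and 0.171 against 1.88 and 2.60), with all 3 calls lost without either hindstomach library. Car2, the abundant cytosolic form, stood at 102 and 92.7 FPKM in the colon and 188 and 319 in the hindstomach and was not called (log2 fold change -1.32, SE 0.28, adjusted p = 0.0525). Of the aquaporins, 1 of 6 tested was lower, Aqp3, the basolateral water and glycerol channel, at 6.44 and 7.12 FPKM in the colon and 47.8 and 64.2 in the hindstomach (log2 fold change -2.86, SE 0.20, adjusted p = 0.00268).

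Gut hormone genes were higher for 5 of 20 tested, of 22 in the table, and lower for 1, with a median log2 fold change of 0.79. They numbered 9, 7, 2 and 2 higher without colon replicate 1, colon replicate 2, hindstomach replicate 1 and hindstomach replicate 2. Besides Insl5, the colon had more Pyy, peptide YY of distal endocrine cells, at 98.6 and 103 FPKM in the colon and 9.08 and 12.5 in the hindstomach (log2 fold change 3.13, SE 0.19, adjusted p = 0.00198). Nts, neurotensin, stood at 6.76 and 4.495 FPKM in the colon and 0.0964 and 0.148 in the hindstomach (log2 fold change 2.54, SE 0.26, adjusted p = 0.00704). Sct, secretin, stood at 89.6 and 74.0 FPKM in the colon and 29.3 and 24.4 in the hindstomach (log2 fold change 1.57, SE 0.18, adjusted p = 0.0108), and Gcg, which encodes the glucagon-like peptides, at 17.3 and 23.6 FPKM in the colon and 8.34 and 5.93 in the hindstomach (log2 fold change 1.40, SE 0.24, adjusted p = 0.0316). The groups did not overlap for these 4 hormones, as was so in this direction for 30.2% of all genes. Insl5 and Pyy were also called higher than in the intestine, where Pyy stood at 9.78 and 5.98 FPKM, and Nts, Sct and Gcg were not. Gast, gastrin of the antrum, stood at 0.796 and 0.0422 FPKM in the colon and 10.7 and 15.3 in the hindstomach (log2 fold change -3.34, SE 0.34, adjusted p = 0.00721). Among the endocrine transcription factors 1 of 8 tested genes was called, of 18 in the table: Isl1 was lower, at 0.670 and 1.31 FPKM in the colon and 7.07 and 7.65 in the hindstomach (log2 fold change -2.09, SE 0.24, adjusted p = 0.0107). The Isl1 call ended without either hindstomach library. Isl1 is also a factor of the mesenchyme near the pylorus. Neurog3, which starts endocrine differentiation, stood at 3.84 and 3.53 FPKM in the colon and 5.75 and 3.45 in the hindstomach, and the groups overlapped.

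Tight junction and detoxification genes, and a list that joins keratins with adhesion genes, were called in both directions. Of 14 claudins tested, 2 were higher and 1, Cldn18, lower, with 5, 3, 2 and 1 higher in the order given. Cldn8, a sealing claudin of the distal colon, stood at 58.1 and 75.0 FPKM in the colon and 6.21 and 3.17 in the hindstomach (log2 fold change 3.61, SE 0.30, adjusted p = 0.00413), and Cldn3 at 116 and 156 FPKM in the colon and 36.4 and 28.4 in the hindstomach (log2 fold change 2.03, SE 0.22, adjusted p = 0.00874). Among 20 genes of epithelial keratins and adhesion, 4 were higher and 2 lower, and 4, 6, 3 and 1 were higher and 2, 2, 1 and 1 lower in that order. Krt23 stood at 8.06 and 5.80 FPKM in the colon and 65.7 and 52.6 in the hindstomach (log2 fold change -2.93, SE 0.22, adjusted p = 0.00298). Krt18, a keratin of simple epithelia, stood at 269 and 329 FPKM in the colon and 722 and 742 in the hindstomach (log2 fold change -1.30, SE 0.21, adjusted p = 0.0254). Both of these keratins were lower in the colon, and the 4 members called higher, Ceacam1, Cdh17, Cldn3 and Lgals3, are not keratins. Among 35 tested genes of xenobiotic and steroid metabolism, 5 were higher and 8 lower, and 6, 11, 1 and 0 were higher and 13, 8, 3 and 2 lower with each library left out. Gsta4, a glutathione transferase that clears lipid aldehydes, stood at 59.7 and 94.4 FPKM in the colon and 988 and 1026 in the hindstomach (log2 fold change -3.73, SE 0.26, adjusted p = 0.00267). Gstm1, another glutathione transferase, stood at 121 and 136 FPKM in the colon and 464 and 749 in the hindstomach (log2 fold change -2.19, SE 0.27, adjusted p = 0.0130). Both were abundant in the hindstomach and lower in each colon library. Fragments of related Gsta and Gstm genes may have been divided among them. Cyp11a1, the first enzyme of steroid synthesis, was higher, at 5.97 and 11.2 FPKM in the colon and 0.218 and 0.0928 in the hindstomach (log2 fold change 3.00, SE 0.32, adjusted p = 0.00832) and also higher than in the intestine, and the aldehyde dehydrogenase gene Aldh1b1 was higher at 514 and 267 FPKM in the colon and 103 and 68.8 in the hindstomach (log2 fold change 2.12, SE 0.37, adjusted p = 0.0316).

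Signalling genes are given as counts in small lists. Over all genes tested, 4.01% were called higher and 2.81% lower, so these counts do not show fewer calls than elsewhere. Of 21 Wnt target and stem cell genes tested, 1 was called, Sox9, which was lower, at 11.7 and 15.5 FPKM in the colon and 28.1 and 39.5 in the hindstomach (log2 fold change -1.25, SE 0.24, adjusted p = 0.0402), and 0 were called higher. The Sox9 call held only without colon replicate 2, and the list counted 2, 0, 0 and 0 higher and 1, 3, 0 and 0 lower with each library left out (an unadjusted p under 0.05 was reached by 2 higher and 4 lower in limma). Olfm4, a stem cell marker of the bowel, stood at 57.2 and 7.71 FPKM in the colon and 204 and 344 in the hindstomach, with both colon libraries below both hindstomach libraries, and was not called (log2 fold change -3.56, SE 0.87, adjusted p = 0.0765). Of 19 Hedgehog and Bmp genes, 1 was higher and 2 lower (8, 2, 0 and 0 higher and 3, 5, 1 and 0 lower with each library left out). Id1, a target of Bmp signalling, stood at 28.5 and 34.0 FPKM in the colon and 99.6 and 148 in the hindstomach (log2 fold change -1.93, SE 0.24, adjusted p = 0.0127). The ligand Shh, whose locus drives the Cre in these embryos, stood at 5.32 and 10.1 FPKM in the colon and 19.9 and 23.1 in the hindstomach and was not called (log2 fold change -1.42, SE 0.30, adjusted p = 0.0525), and the Bmp4 ligand of the mesenchyme at 8.12 and 16.7 FPKM in the colon and 1.14 and 3.35 in the hindstomach was not called either (log2 fold change 2.06, SE 0.46, adjusted p = 0.0613). 

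Set against the intestine, the colon stood apart mostly by genes that were higher in it. In a fit of colon, hindstomach and intestine, 310 genes (2.53%) were called higher in the colon than in the intestine and 3 (0.0245%) lower. This comparison shares its colon libraries with the one above, so the calls are given side by side and not as an overlap to be tested. Over all genes the median log2 fold change was 0.23 here, and -0.01 after median-of-ratios scaling, under which 248 were higher and 5 lower. These counts moved with single libraries. Without colon replicate 1, 1906 were higher and 551 lower, and without colon replicate 2, 107 and 1. Leaving out intestine replicate 1 gave 155 and 1, intestine replicate 2 gave 56 and 0, hindstomach replicate 1 gave 95 and 0, and hindstomach replicate 2 gave 93 and 0. Of the 491 genes called higher than in the hindstomach, 130 were also called higher than in the intestine, 360 had no call and 1, H2-Bl, was lower. H2-Bl belongs to the MHC class I genes and is labelled a polymorphic pseudogene in GENCODE M21. H2-Bl stood at 6.11 and 6.22 FPKM in the colon, 2.38 and 1.92 in the hindstomach and 18.9 and 14.8 in the intestine. Of the 344 called lower than in the hindstomach, 26 were called higher than in the intestine and 318 had no call. Foxa1, a pioneer factor of endoderm, was 1 of these 26, at 19.8 and 27.9 FPKM in the colon, 95.2 and 92.6 in the hindstomach and 6.64 and 5.33 in the intestine. Foxa1 and H2-Bl lie outside the rule for naming genes and were chosen after their values were seen.

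Transcripts of other cell types differed between the tissues and between the libraries of a tissue. Smooth muscle genes were higher in the colon for 8 of 12 tested and lower for 1, and summed to 679 and 1338 FPKM in the colon and 127 and 247 in the hindstomach. They counted 10, 6, 0 and 4 higher without colon replicate 1, colon replicate 2, hindstomach replicate 1 and hindstomach replicate 2. Actg2, the actin of gut muscle, stood at 178 and 348 FPKM in the colon and 19.2 and 52.9 in the hindstomach (log2 fold change 2.92, SE 0.54, adjusted p = 0.0365), and Myh11, smooth muscle myosin, at 44.5 and 72.4 FPKM in the colon and 4.04 and 11.6 in the hindstomach (log2 fold change 2.86, SE 0.47, adjusted p = 0.0286). Every smooth muscle gene tested was lower in colon replicate 1 than in colon replicate 2. Synm, an intermediate filament gene, went the other way at 2.20 and 2.60 FPKM in the colon and 13.8 and 12.9 in the hindstomach (log2 fold change -2.08, SE 0.19, adjusted p = 0.00504). Mesenchyme genes summed to 575 and 1459.9 FPKM in the colon and 388 and 488 in the hindstomach. Of 20 mesenchyme genes tested, 0 were called in limma, although 15 higher and 1 lower had an unadjusted p under 0.05, and 18 were called higher without colon replicate 1. The fibroblast factor Tcf21 stood at 11.9 and 37.4 FPKM in the colon and 2.86 and 5.58 in the hindstomach (log2 fold change 2.14, SE 0.55, adjusted p = 0.0881). Genes of enteric neurons and glia had 2 of 17 called higher, and 13 without colon replicate 1, 6 without colon replicate 2 and 0 without either hindstomach library. Prph, an intermediate filament of peripheral neurons, stood at 10.8 and 30.2 FPKM in the colon and 2.15 and 2.03 in the hindstomach (log2 fold change 2.63, SE 0.46, adjusted p = 0.0316). The part of such cells in the results above was not tested.

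Transcription factors that mark regions of the gut mesenchyme were called in both directions. Barx1, which patterns stomach mesenchyme, stood at 0.175 and 0.153 FPKM in the colon and 6.41 and 4.29 in the hindstomach (log2 fold change -2.43, SE 0.25, adjusted p = 0.00780). Hand1 stood at 2.38 and 5.84 FPKM in the colon and 0.0393 and 0.446 in the hindstomach (log2 fold change 1.97, SE 0.40, adjusted p = 0.0466). Of 12 such genes tested, of 17 in the table, 2 were called higher and 3 lower. Leaving out colon replicate 1, colon replicate 2, hindstomach replicate 1 and hindstomach replicate 2 gave 6, 3, 0 and 0 higher and 2, 3, 0 and 1 lower. The groups did not overlap for Barx1 and Hand1, and both genes stood below 10 FPKM in every library. Over all genes, both colon libraries lay below both hindstomach libraries for 23.9% and above them for 30.2%.

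Transcripts of liver and pancreas, organs that adjoin the stomach, were present in both tissues. Liver genes were lower in the colon for 6 of 14 tested (6, 6, 2 and 2 in that order of libraries left out). Alb, serum albumin, stood at 5.91 and 6.49 FPKM in the colon and 168 and 57.2 in the hindstomach (log2 fold change -3.78, SE 0.49, adjusted p = 0.0143), and hindstomach replicate 1 was the highest of the 4. Pancreatic acinar genes had 0 of 21 called in limma, with 3 lower and 0 higher at an unadjusted p under 0.05, and summed to 2441 and 762 FPKM in the colon and 6056 and 1752 in the hindstomach. The chymotrypsinogen gene Ctrb1 stood at 1041 and 354 FPKM in the colon and 2852 and 748 in the hindstomach, with replicate 1 the higher of both pairs. Squamous genes had 1 of 10 tested called lower, of 22 in the table, and 1, 2, 1 and 5 without each library in turn. Sprr1a, a cornified envelope protein also found in simple epithelia, stood at 1.49 and 2.07 FPKM in the colon and 82.4 and 81.9 in the hindstomach (log2 fold change -4.91, SE 0.18, adjusted p = 0.000839), while the squamous keratin Krt13 stood at 1.38 and 0.0746 FPKM in the colon and 91.8 and 5.33 in the hindstomach and was not called (log2 fold change -3.92, SE 1.23, adjusted p = 0.131). Endothelial genes had 0 of 9 called in limma (5 higher and 0 lower at an unadjusted p under 0.05, and 7 called higher without colon replicate 1), and leukocyte genes 1 of 11, the macrophage receptor gene Csf1r, at 12.8 and 10.9 FPKM in the colon and 2.60 and 2.90 in the hindstomach. The Csf1r call ended without either hindstomach library, and the leukocyte list counted 6, 1, 0 and 0 higher without colon replicate 1, colon replicate 2, hindstomach replicate 1 and hindstomach replicate 2. C1qb, a complement gene of macrophages, stood at 6.17 and 12.0 FPKM in the colon and 4.10 and 3.72 in the hindstomach and was not called.

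**Figure D5:**
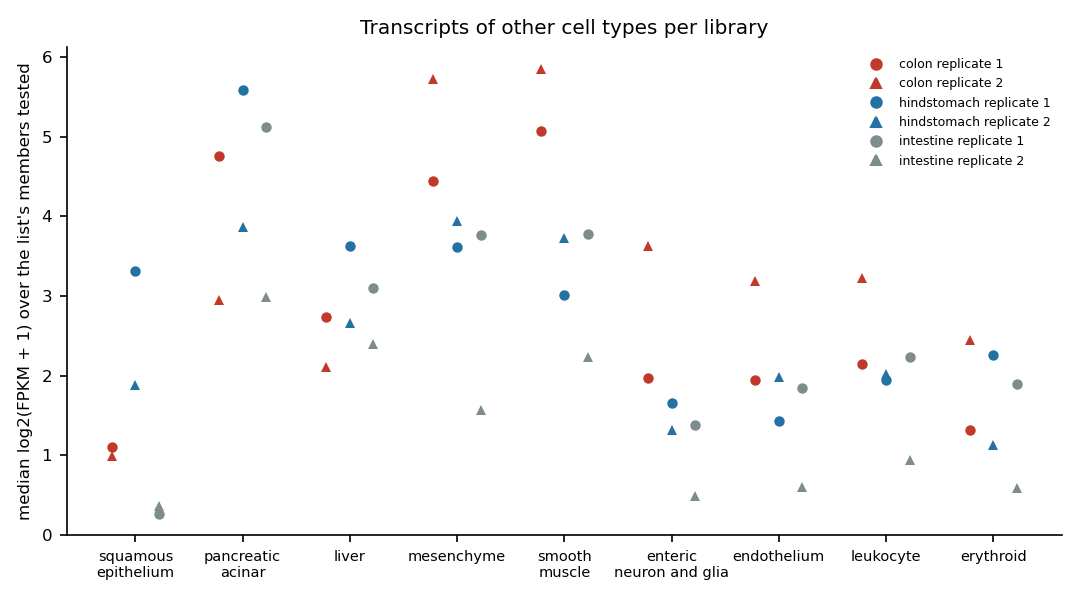
Median log2(FPKM + 1) over the tested members of each list of other cell types (vertical axis) in each library; circles are replicate 1 and triangles replicate 2, red colon, blue hindstomach and grey intestine. Colon replicate 2 is the highest library for mesenchyme, smooth muscle, neuron and glia, endothelium and leukocyte genes, and hindstomach replicate 1 for squamous, acinar and liver genes.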

How the data were processed

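The data are 1 deposited table of FPKM values made by the authors from poly(A) RNA-seq. STAR 2.4.2a and the build GRCm38 (mm10) are named in the submitters' processing notes. Which program made the FPKM values, with which annotation and strand setting, is not given in the sources used here. A further 4 columns matched no sample and were not used. From the FPKM values, log2(FPKM + 1) was fitted in limma 3.58.1 (R 4.3.3; eBayes with a trend) over genes that reached 1 FPKM in 2 or more of the 4 libraries, with 2 residual degrees of freedom. P-values were adjusted by the Benjamini-Hochberg method over all genes tested, and a call needed an adjusted p under 0.05 and a fold change of at least 2. A second fit added the intestine libraries (6 libraries). The procedure was tested on simulated data, with changes planted only in genes above a set mean level and noise independent between libraries. That test does not cover low genes or differences that many genes of a library share. Genes named are, per direction, the 15 called genes with the largest differences that average at least 10 FPKM in the higher tissue and do not overlap (leaving out predicted, RIKEN, pseudogene, ribosomal and mitochondrial models), up to 6 per list by absolute fold change, called genes that go against their list, tested Hox genes and the 5 most abundant genes of each tissue; some of these are not reported here. The members and the 41 gene lists were chosen with earlier results of these data known. Relative depth was estimated from the steps between low FPKM values. Alternatives were other pseudocounts, filters, scalings, variance settings, sets of libraries, leaving out each library in turn, and a block for the replicate number.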

Additional observations from a re-analysis of the deposited data

How the results depend on the processing

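Against 491 genes higher and 344 lower between colon and hindstomach, a pseudocount of 5 gave 225 and 194, and dropping the filter on low values gave 105 and 104. A fit of all 8 libraries gave 151 and 63, and a test by treat against a 1.5-fold change gave 148 and 150. Leaving out 1 library gave 87 to 1199 higher and 79 to 528 lower. Against 310 higher and 3 lower between colon and intestine, median-of-ratios scaling gave 5 lower, and a fit of only the 4 colon and intestine libraries gave 97 and 0. Leaving out 1 library gave 56 to 1906 higher and 0 to 551 lower there. The cause of these moves was not tested. Apart from the blocks described below, the other alternatives kept each count within 1.5 times. Rescaling every library to the same total FPKM moved the median log2 fold change between colon and hindstomach, over all genes, to 0.10.

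The counts in this paragraph leave out the test by treat, which was not checked gene by gene. The filter at 5 FPKM tested only 106 of the 114 genes given with a call, and all of these kept it. None of the 114 genes reversed under any alternative that tested it. Calls among them ended for 46 without hindstomach replicate 1, for 50 without hindstomach replicate 2, for 63 in the fit of all 8 libraries, for 53 without the filter and for 13 with a pseudocount of 5, and for at most 6 under each of the others. Genes without a call changed sign as follows. H19 stood at a log2 fold change of 1.24 after quantile normalization and 0.00399 after rescaling to the same total. With 1 library left out, it ran from -0.430 to 0.224 for H19, from -0.661 to 1.29 for Aqp8, from -0.0674 to 0.614 for Gsdmd, from -0.528 to 0.0749 for Neurog3 and from -0.720 to 0.830 for Xist.

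Whether same-numbered libraries were paired could not be decided from the values below, which also carry other differences between libraries of a tissue. Deviations from the group means correlated across genes at -0.02 between same-numbered colon and hindstomach libraries, at -0.58 between colon and intestine and at 0.28 between hindstomach and intestine. With the replicate number as a block, 888 genes were higher and 468 lower in the colon than in the hindstomach, and 115 were higher and 0 lower than in the intestine. With the colon numbers exchanged, an alternative chosen after seeing the data, 562 were higher and 16 lower than in the intestine.

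With 2 libraries per tissue the calls depend on the spread of 2 pairs, and the lone library of a fit with 1 left out is assumed to vary like the others. FPKM carries no read counts, so the counting error of low genes is unknown.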

Other observations

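Of 25 cell cycle genes tested, limma called 0 between colon and hindstomach, and 0 reached an unadjusted p under 0.05. The median log2 fold change was -0.08, and 24 of the 25 genes were higher in hindstomach replicate 1 than in replicate 2. Immediate early and heat shock genes, which can be raised while tissue is being dissociated, had 0 of 15 called in limma, with 2 higher and 2 lower at an unadjusted p under 0.05. The hindstomach had been in EDTA of the higher concentration, and the part of handling in any result was not tested.

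Oncofetal and imprinted genes had 0 of 13 called in limma, with 2 higher and 0 lower at an unadjusted p under 0.05. H19, an imprinted non-coding RNA of fetal tissues, was among the 5 most abundant transcripts of both tissues, at 6496 and 4129 FPKM in the colon and 6529 and 4738 in the hindstomach. The groups overlapped, and replicate 1 was the higher of both pairs.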
